A study of Homo sapiens with 6 samples.

Results

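The genes of the AP-1 transcription factor and the immediate early gene EGR1 were followed in DU-145/tet-XISTshRNA cells. These are 10 genes, FOS, FOSB, FOSL1, FOSL2, JUN, JUNB, JUND, ATF2, ATF3 and EGR1, of the 25528 gene symbols in the expression table, and all 10 passed the minimum expression level, a mean of at least 1 TPM, which FOSB passed through its vehicle samples (its DOX mean was 0.926 TPM). They were chosen by name and partly because FOS was lower in some of the DOX-treated samples. Their DOX values are therefore given as a description, without p-values.

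DU-145 is an established line of human castration-resistant prostate cancer cells. It was transduced here with a tetracycline-inducible vector for a short hairpin RNA (shRNA) against the long non-coding RNA XIST and kept under puromycin or geneticin selection. Cells of this line received either 0.1% DMSO as vehicle (3 samples) or 500 ng/ml doxycycline (DOX; 3 samples) for 7 days, the latter being the drug that switches the shRNA on, so the vehicle cells carry the same vector. Cells with a control shRNA and DOX were not analysed here, so the drug and the shRNA cannot be told apart. The table lists the targeted RNA at 0 throughout and gives no check of the silencing. Nor can fewer cells with a transcript and less of it per cell be told apart in RNA of whole cultures.

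AP-1 is a dimer of basic leucine zipper (bZIP) proteins that binds a short DNA element in the regulatory regions of growth, invasion and inflammation genes. JUN proteins can pair with each other or with FOS proteins, FOS proteins need a JUN partner, and ATF proteins pair with JUN or among themselves. Many of these genes, with EGR1, are immediate early genes: serum, growth factors or stress switch them on within minutes through MAP kinases and factors already present in the cell, such as SRF, and their transcripts are short-lived.

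To show the control regions of these genes, RefSeq promoter windows on GRCh38.p14 (250 bases before to 50 bases after each start site) were searched on both strands for the AP-1 site TGACTCA, the CRE TGACGTCA and the CArG box, which SRF binds; none of these motifs contains another. Of the 10 genes, 8 had a window in the table, 9 windows in all. The stretches shown are those of FOS and EGR1, whose differences between DOX and vehicle are described most fully, and of the members with an AP-1 site or a CRE, with the motifs in capitals and each read 5′ to 3′ on the strand of the gene.
EGR1, chr5:138465349-138465430, plus strand: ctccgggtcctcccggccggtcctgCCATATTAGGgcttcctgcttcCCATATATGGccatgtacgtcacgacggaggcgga
FOS, chr14:75278748-75278827, plus strand: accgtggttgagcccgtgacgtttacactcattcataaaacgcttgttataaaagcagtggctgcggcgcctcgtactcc
JUND, chr19:18281790-18281847, minus strand: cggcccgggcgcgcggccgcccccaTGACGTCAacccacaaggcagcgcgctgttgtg
FOSL2, chr2:28392854-28392876, plus strand: cattgtagTGACTCAtctcgggc

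The EGR1 stretch holds 2 CArG boxes, which begin 105 and 83 bases before the start site. The FOS stretch, the 80 bases before its start site, holds none of the 3 motifs, nor does the rest of its window. Sites further upstream, and sequences close to a motif without matching it, were not searched, so FOS may still have them. The CRE of JUND begins 200 bases before its start site, and the AP-1 site of FOSL2 begins 5 bases after it. Among all 35116 windows, 4.95% held the AP-1 site, 1.85% the CRE and 1.29% the CArG box, so a motif in these windows is a description of the sequence and not of binding.

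Expression was measured by RNA-seq of mRNA and deposited as TPM (transcripts per 1000000 transcripts, reads divided by gene length and set to a fixed total). By recovery from the TPM, 16701861 to 64573299 reads fell on genes in 5 of the 6 samples and 5453785 in vehicle replicate 3, where low genes were thus least precise. Small RNAs held 67.5% to 82.6% of the TPM, most in DOX replicate 1. The samples were therefore put on a common scale by median-of-ratios factors, and levels are given as scaled TPM. DOX replicate 2 stood apart for the genes followed here, so results are given with and without it. Its depth (18920749 reads) and its small RNA share (76.0%) lay within the range of the other 5 samples. The keratin genes KRT8 (59.9 to 91.2 TPM) and KRT18 (75.9 to 147 TPM) and the mesenchymal gene VIM (274 to 503 TPM) were expressed in every sample, and the prostate gene KLK3 was at 0 in all 6, as known for DU-145 cells. Markers of blood and endothelial cells (PTPRC and PECAM1) did not exceed 0.0531 TPM.

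In vehicle-treated cells, EGR1, a zinc finger transcription factor, had the highest level of the 10 genes, with a mean of 108 scaled TPM, and FOSB had the lowest, with 2.62. TPM is per transcript length, so genes can be set side by side. After EGR1 the order was FOSL1 (40.7), FOS (35.7), JUNB (35.0), JUND (22.3), FOSL2 (20.8), ATF2 (19.5), JUN (9.67) and ATF3 (5.42 scaled TPM). The neighbours FOSL1 and FOS, FOS and JUNB, JUND and FOSL2, and FOSL2 and ATF2 overlapped between samples and were not separated by their spread. In vehicle cells the FOS-family transcripts were thus mostly FOSL1, FOS and FOSL2, and the JUN-family transcripts JUNB and JUND.

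**Figure D1:**
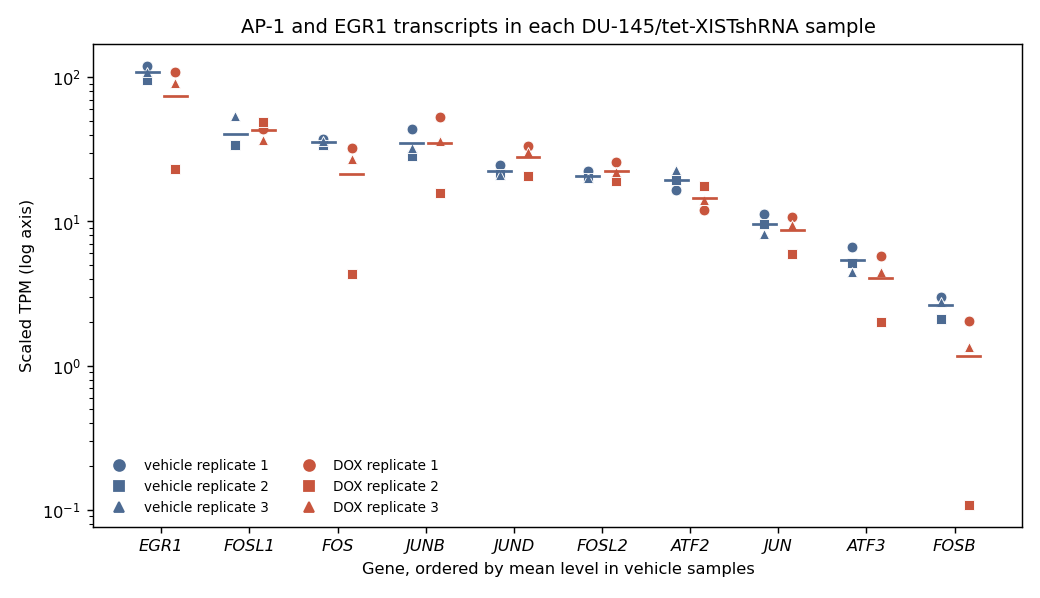
Scaled TPM (log axis) of each of the 10 genes in the 3 vehicle (blue) and 3 DOX samples (red); symbols mark the replicate number and bars the group mean. The red square, DOX replicate 2, is far below the other 5 samples for FOS, FOSB and EGR1 and among them for FOSL1 and ATF2.

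FOS (chr14:75278826-75282230, GRCh38) encodes the founding member of its family, which forms the classical AP-1 dimer with JUN. It was at 37.5, 33.7 and 35.9 scaled TPM in vehicle replicates 1, 2 and 3 and at 32.3, 4.33 and 27.1 in DOX replicates 1, 2 and 3. Every DOX sample was below every vehicle sample, but DOX replicates 1 and 3 only narrowly so. The vehicle mean was 1.11-fold and 1.32-fold above DOX replicates 1 and 3, and 8.24-fold above DOX replicate 2.

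The group means of FOS were 35.7 ± 1.90 in vehicle and 21.2 ± 14.9 scaled TPM in DOX (SD, n = 3 each). The difference on the log2(scaled TPM + 1) scale was -1.10 (SE 0.55), and -0.26 (SE 0.13) without DOX replicate 2. The low value of DOX replicate 2 rested on 236 reads, against 545 reads in vehicle replicate 3, which had fewer reads in all. On the same scale DOX replicate 2 minus the vehicle mean was -2.78 for FOS, a value of the kind that led to its choice.

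FOSB (chr19:45467995-45475179), a close relative of FOS that is induced by the same stimuli, had the same order of samples among the DOX cells. It was at 2.99, 2.12 and 2.75 scaled TPM with vehicle and at 2.04, 0.108 and 1.34 with DOX. DOX replicate 1 was just below the lowest vehicle sample and DOX replicate 2 was 24.2-fold below the vehicle mean. That value rested on 11 reads, against 78 to 730 reads in the other samples. The log2 difference was -0.85 (SE 0.31), and -0.43 (SE 0.17) without DOX replicate 2.

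FOSL1 (chr11:65892049-65900573) and FOSL2 (chr2:28392448-28417317) encode the FOS-related antigens FRA-1 and FRA-2, which lack the transactivation domain of FOS and are expressed for longer after a stimulus. FOSL1 was at 34.1, 34.1 and 53.8 scaled TPM with vehicle and at 43.9, 49.2 and 37.0 with DOX, so the groups overlapped and DOX replicate 2 was the highest DOX sample. FOSL2 lay between 19.0 and 25.7 scaled TPM in all 6 samples. The log2 differences were 0.11 (SE 0.19) for FOSL1 and 0.08 (SE 0.14) for FOSL2. Among the FOS family, the values of DOX replicate 2 that were far below the other samples were thus those of FOS and FOSB.

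Of the JUN family, JUN (chr1:58776845-58784048) encodes the partner of FOS in the classical dimer. It was at 11.2, 9.60 and 8.24 scaled TPM with vehicle and at 10.7, 5.92 and 9.44 with DOX, so that the groups overlapped through DOX replicates 1 and 3. JUNB (chr19:12791486-12793315), a partner with weaker activity that can oppose JUN, was at 43.8, 28.5 and 32.6 with vehicle and at 53.2, 15.8 and 36.4 with DOX. Its highest and its lowest values were thus both in DOX cells.

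The log2 difference of JUN was -0.17 (SE 0.20) and that of JUNB was -0.13 (SE 0.35). Without DOX replicate 2 they were 0.06 and 0.35, with the opposite sign. DOX replicate 2 was 1.63-fold below the vehicle mean for JUN and 2.21-fold for JUNB.

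JUND (chr19:18279694-18281622), the JUN protein that is present in resting cells, was at 24.7, 21.2 and 21.1 scaled TPM with vehicle and at 33.2, 20.8 and 30.3 with DOX. DOX replicates 1 and 3 were above every vehicle sample and DOX replicate 2 just below. The log2 difference was 0.30 (SE 0.17), and 0.49 (SE 0.13) without DOX replicate 2. JUND had the highest GC content of the 10 genes (69.9% of its longest transcript), and after correction of each sample for GC content and length its difference was -0.07, with the opposite sign.

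ATF2 (chr2:175072250-175168382) encodes a bZIP protein that is activated by stress kinases rather than by new transcription. It was at 16.7, 19.3 and 22.7 scaled TPM with vehicle and at 12.1, 17.7 and 14.1 with DOX. Here DOX replicate 2 was the highest DOX sample, and the only one within the vehicle range. The log2 difference was -0.40 (SE 0.16), and -0.54 (SE 0.15) without DOX replicate 2. ATF2 had the lowest GC content of the 10 genes (36.9%), and after the GC and length correction its difference was -0.19 (SE 0.10).

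ATF3 (chr1:212565334-212620777), a stress-induced bZIP protein that often represses its targets, was at 6.60, 5.19 and 4.48 scaled TPM with vehicle and at 5.77, 1.99 and 4.45 with DOX. DOX replicate 1 lay within the vehicle range, DOX replicate 3 just below it, and DOX replicate 2 was 2.72-fold below the vehicle mean. The log2 difference was -0.41 (SE 0.27), and -0.07 (SE 0.17) without DOX replicate 2.

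EGR1 (chr5:138465479-138469303), the gene with the pair of CArG boxes shown above, was at 119.9, 96.2 and 108 scaled TPM with vehicle and at 109, 23.3 and 90.9 with DOX. DOX replicate 1 lay inside the vehicle range and DOX replicate 3 just below it. DOX replicate 2 was 4.65-fold below the vehicle mean, at 1931 reads. The group means were 108 ± 11.9 and 74.5 ± 45.4 scaled TPM (SD, n = 3 each), and the log2 difference was -0.79 (SE 0.45), or -0.11 (SE 0.15) without DOX replicate 2.

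**Figure D2:**
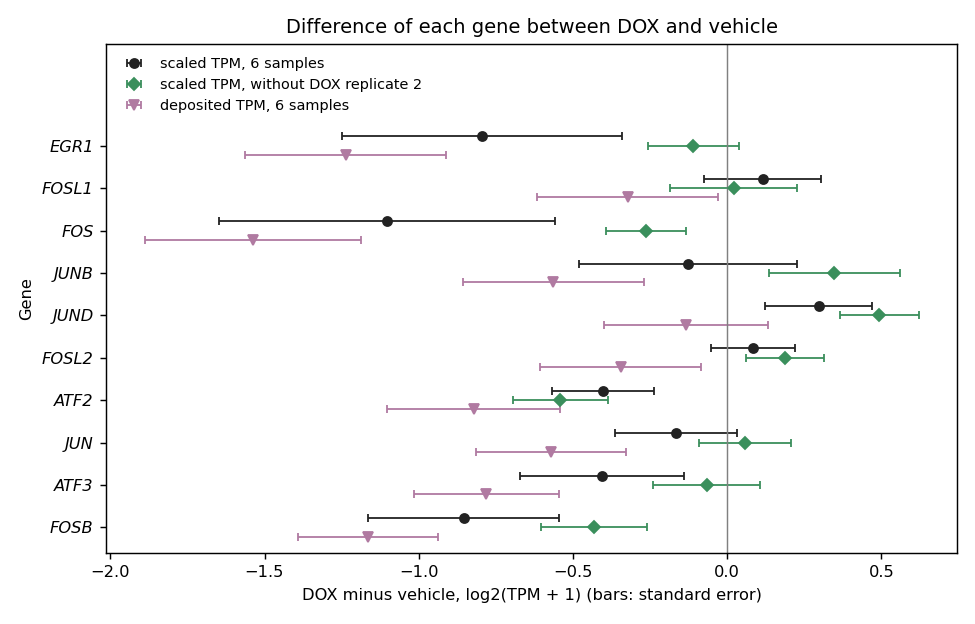
DOX minus vehicle difference of each gene on the log2(TPM + 1) scale, with its standard error, for all 6 samples on scaled TPM (black), without DOX replicate 2 (green) and on the deposited TPM (purple). The value of FOS moves from -1.10 to -0.26 and that of EGR1 from -0.79 to -0.11 when DOX replicate 2 is left out, and every gene lies lower on the deposited TPM.

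Over the 10 genes, 7 had a negative and 3 a positive difference on scaled TPM, with a median of -0.29, where the median over all genes tested was 0.02. Without DOX replicate 2 the median over the 10 genes was -0.02. FOS and FOSB were the 2 members whose groups did not overlap with DOX lower, and none had DOX higher. FOS was chosen partly for its fall and FOSB passed the minimum level through its vehicle samples, so counts with them only describe. Over all genes tested, 9.22% had every DOX sample below every vehicle sample and 10.8% had every DOX sample above. In a comparison without DOX replicate 2, chosen after the data were seen, the members with DOX below vehicle were 3 (FOS, FOSB and ATF2), against a background of 21.7%, and 1 (JUND) had DOX above, against a background of 20.4%.

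The scale set the direction for several members. On the deposited TPM the median difference over all genes was -0.35, and there FOSL1, FOSL2 and JUND had differences of -0.32, -0.35 and -0.13, with the opposite sign to their scaled values. Relative to that median these were 0.03, 0.00 and 0.22. After the GC and length correction FOSL1 was at -0.15, also with the opposite sign, JUN at -0.35 and JUNB at -0.45, while FOS, FOSB, ATF3 and EGR1 were at -1.27, -1.04, -0.47 and -0.97 and FOSL2 at 0.02. On the deposited TPM 6 members (FOS, FOSB, FOSL2, JUN, ATF3 and EGR1) had every DOX sample below every vehicle sample, where 30.7% of all genes did.

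The test across all genes used limma with Benjamini-Hochberg adjustment, and the call rule was a fold change over 1.5 with an adjusted p-value under 0.05. On scaled TPM it called 0.0% of genes lower and 0.0% higher in DOX. These counts and those that follow are over all 11672 genes tested, which include the 10 members. Calls of single genes are given only for genes that were not chosen on these values. With the p-value left unadjusted, the rule took 133 lower (1.14%) and 136 higher genes (1.17%). On the deposited TPM limma called 348 genes lower (2.98%) and 3 higher. With limma voom on reads recovered from the TPM and blocked by replicate number, the calls were 260 lower (2.23%) and 170 higher.

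DOX replicate 2 was the lowest of the 6 samples for 8 of the 10 genes, all but FOSL1 and ATF2. It was the lowest sample for 15.2% of all genes tested. In this sample 5 of the 10 genes (FOS, FOSB, JUNB, ATF3 and EGR1) were over 2-fold below their vehicle mean, against 1.45% of all genes. In DOX replicates 1 and 3 none of the 10 was, against 2.3% and 1.23% of all genes. The 5 genes in DOX replicate 2 include FOS, chosen partly for such a fall, and FOSB, which passed the minimum level through its vehicle samples. The median of the 10 genes against the vehicle mean was 0.11, -0.85 and -0.16 on the log2 scale in DOX replicates 1, 2 and 3.

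**Figure D3:**
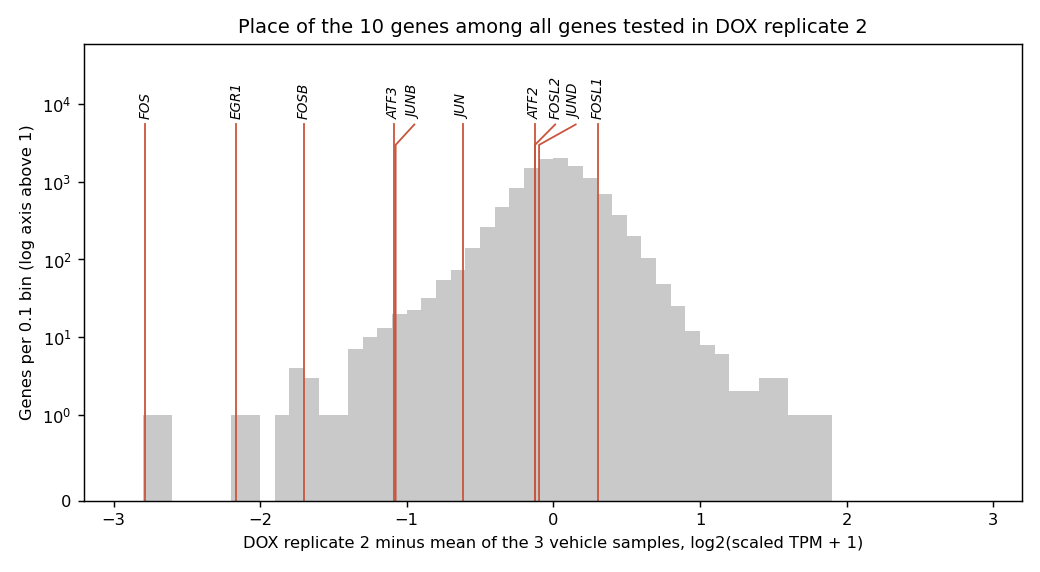
Histogram of all 11672 genes tested by their log2(scaled TPM + 1) in DOX replicate 2 minus the vehicle mean (bins of 0.1; the count axis is logarithmic above 1), with the 10 genes marked by red lines. FOS at -2.78, EGR1 at -2.16 and FOSB at -1.70 lie in the far lower tail, and FOSL1, FOSL2, JUND and ATF2 lie within the bulk.

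The genes whose pattern over the 6 samples was most like that of FOS were found by the root mean square distance of log2(scaled TPM + 1) after each gene's mean was subtracted. Among the genes tested, the nearest were EGR1 (0.22), the nuclear receptor gene NR4A1 (0.37), the mRNA decay factor gene ZFP36 (0.39), the Notch target HES1 (0.40) and the protease inhibitor gene SLPI (0.40). Of the 11671 other genes, FOSB ranked 9, ATF3 25, JUNB 33 and JUN 161. FOSL2 ranked 1677, JUND 1856, ATF2 7162 and FOSL1 10347. The profile of FOS is set mostly by its low value in DOX replicate 2, so genes near it are those that were low in that sample too, and the ranks restate that value.

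To ask whether other genes of the same response moved, a list of 30 further immediate early genes was described, of which 26 passed the minimum level. EGR2, EGR4, ARC and PTGS2 did not. EGR3 passed it (1.11 TPM) through its vehicle samples alone, with means of 1.84 TPM in vehicle and 0.381 in DOX, so a difference was bound to appear for it, and the counts over the 26 genes include it. On scaled TPM limma called 0 of the 26. With unadjusted p-values 4 passed the rule as lower (EGR3, NR4A3, CTGF and NFKBIZ; 1.14% of all genes did) and none was higher, and 20 had a negative and 6 a positive difference, with a median of -0.19. Their median was -0.03 without DOX replicate 2. In limma voom with the replicate number as a block, 5 of the 26 were called lower, namely EGR3, NR4A1, NR4A3, CTGF and NFKBIZ, where 2.23% of all genes were. On the deposited TPM 8 were called lower, where 2.98% of all genes were. EGR3 was in both counts.

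EGR3, a relative of EGR1, was at 1.57, 1.71 and 1.40 scaled TPM with vehicle and at 0.750, 0.057 and 0.609 with DOX, the lowest value resting on 7 reads. All DOX samples were below all vehicle samples, with a gap that DOX replicates 1 and 3 also kept. Its log2 difference was -0.83 (SE 0.19), and -0.61 without DOX replicate 2; no test is given, for the reason above.

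NFKBIZ, which encodes a nuclear cofactor of NF-κB, was at 9.29, 10.3 and 8.69 scaled TPM with vehicle and at 6.01, 3.25 and 6.97 with DOX, so the groups were apart. Its log2 difference was -0.75 (SE 0.21, limma adjusted p = 0.280), with an adjusted p of 0.0189 in voom with the block. ZFP36, whose product destabilises mRNAs with AU-rich elements, was at 83.3, 81.9 and 75.6 scaled TPM with vehicle and at 72.1, 23.6 and 67.5 with DOX. Its log2 difference was -0.71 (SE 0.34, limma adjusted p = 0.330). For ZFP36, as for FOS, DOX replicates 1 and 3 were only narrowly below vehicle.

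The genes of this list with the highest levels did not share the low value of DOX replicate 2 to the same extent. CYR61 (CCN1), a matricellular protein gene and a target of SRF, was at 142, 121 and 153 scaled TPM with vehicle and at 167, 115 and 135 with DOX, with a difference of -0.01 (limma adjusted p = 0.986). MCL1, an anti-apoptotic BCL2 relative, was at 138, 149 and 148 with vehicle and at 110.2, 96.2 and 135 with DOX, with a difference of -0.36 (SE 0.14, limma adjusted p = 0.287). In voom with the block its adjusted p was 0.0440, but its fold change was under 1.5.

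DOX replicate 2 was the lowest sample for 21 of the 26 genes, against 15.2% of all genes. Of the 26, 9 were over 2-fold below their vehicle mean there, against 1.45% of all genes. They were lower by 27.4-fold for EGR3, 4.47-fold for NR4A1, 3.79-fold for NR4A2, 3.40-fold for ZFP36, 2.90-fold for NFKBIZ, 2.71-fold for SGK1, 2.50-fold for NR4A3, 2.43-fold for CTGF and 2.16-fold for TRIB1. KLF2, IER5, GADD45B and KLF10 were not below it. In DOX replicates 1 and 3, EGR3 was the 1 gene over 2-fold below the vehicle mean. The median of the 26 genes was -0.03, -0.59 and -0.06 in DOX replicates 1, 2 and 3. DOX was below vehicle in every sample for 8 of the 26, EGR3 included, and above for 0, against backgrounds of 9.22% and 10.8% of all genes. Without DOX replicate 2 the counts were 8 and 6 of 26, against backgrounds of 21.7% and 20.4%.

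**Figure D4:**
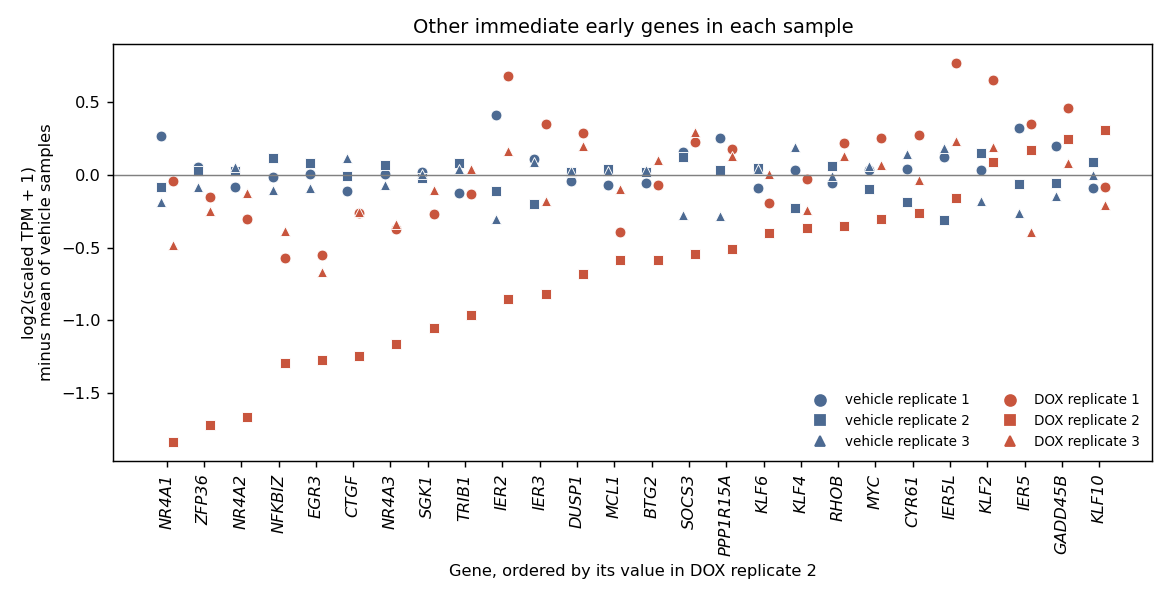
Each sample's log2(scaled TPM + 1) minus the mean of the 3 vehicle samples for the 26 further immediate early genes tested, ordered by DOX replicate 2 (red square); blue symbols are vehicle and red DOX samples. The square is below all other samples for 21 genes. Both DOX replicates 1 and 3 lie below every vehicle sample for 8 genes, among them EGR3 and NFKBIZ, and above every vehicle sample for 6. Over all genes tested, 21.7% lie below and 20.4% above in this way.

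The other bZIP proteins that can join AP-1 dimers are MAF, ATF, CREB and BATF proteins. Of 11 such genes 8 passed the minimum level (BATF, BATF2 and CREB5 did not), and limma called 0, with 3 differences negative, 5 positive and a median of 0.06; none passed the unadjusted threshold. MAFF, a small MAF protein gene, had every DOX sample above every vehicle sample, as had 10.8% of all genes. It was at 2.43, 2.51 and 2.74 scaled TPM with DOX against 2.06, 1.95 and 2.20 with vehicle. Its difference was 0.21 (SE 0.12, limma adjusted p = 0.387). That turned to -0.10 on the deposited TPM and to -0.04 after the GC and length correction. The highest expressed were ATF1 and ATF7, relatives of CREB1 and ATF2, with differences of -0.20 (adjusted p = 0.454) and -0.03 (adjusted p = 0.922). DOX replicate 2 was the lowest sample for 3 of the 8 (MAFK, ATF1 and ATF7), against 15.2% of all genes. None of the 8 was over 2-fold below vehicle in it, against 1.45% of all genes.

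The factors and kinases upstream of these genes were described from a list of 20, of which 19 passed the minimum level (MAPK10 did not). It holds SRF with its cofactors of the ELK and myocardin-related (MKL) families, MAP kinases with their activators, RSK kinases and the EGR1 corepressors NAB1 and NAB2. Limma called 0 of the 19, with 9 differences negative, 10 positive and a median of 0.06, and none passed the unadjusted threshold. DOX replicate 2 was the lowest sample for 0 of these 19 genes, against 15.2% of all genes. It was below every vehicle sample for 4 of them, against 26.0% of all genes.

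SRF itself was at 10.2, 9.01 and 7.58 scaled TPM with vehicle and at 10.8, 9.11 and 9.83 with DOX; it is named here after its values were seen. NAB1 was at 12.4, 16.1 and 14.6 with vehicle and at 8.92, 10.8 and 10.0 with DOX, with a difference of -0.49 (SE 0.14, limma adjusted p = 0.280). RPS6KA3, which encodes the kinase RSK2, was at 15.4, 18.5 and 18.1 with vehicle and at 9.59, 14.3 and 12.7 with DOX, with a difference of -0.49 (SE 0.16, limma adjusted p = 0.280). In both, DOX was below vehicle in every sample and DOX replicate 2 was the highest of the DOX samples, unlike in FOS or EGR1. Of the 19 genes, 4 had DOX below vehicle in every sample and 2 had it above, against 9.22% and 10.8% of all genes. After the GC and length correction NAB1 differed by -0.36 and RPS6KA3 by -0.24. MKL2 (MRTFB) differed by -0.25 (adjusted p = 0.344), and the abundant MEK1 gene MAP2K1 by 0.23 (adjusted p = 0.349), or -0.20 on the deposited TPM.

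Known targets of AP-1 were taken from a list of 24 genes, of which 17 passed the minimum level. The collagenase, stromelysin and other matrix metalloproteinase genes MMP1, MMP3, MMP9, MMP10 and MMP13 and the osteopontin gene SPP1 were among those that did not. Limma called 0 of the 17. At the unadjusted threshold IL6 and CXCL8 were lower (1.14% of all genes were) and none was higher. Of the differences, 5 were negative and 12 positive, with a median of 0.14, against 0.02 over all genes. After the GC and length correction the median of the list was 0.03, against 0.01 over all genes. On the deposited TPM it was -0.30, against -0.35. With voom and the block 1 gene, CXCL8, was called lower (adjusted p = 0.0496), where 2.23% of all genes were. On the deposited TPM 3 were (IL6, CXCL8 and AREG), where 2.98% of all genes were.

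IL6, which encodes an inflammatory cytokine, was at 45.2, 53.2 and 50.1 scaled TPM with vehicle and at 37.9, 13.9 and 41.2 with DOX, with a difference of -0.80 (SE 0.33, limma adjusted p = 0.292) and of -0.32 without DOX replicate 2. AREG, the EGF receptor ligand amphiregulin, was at 70.0, 68.8 and 67.7 with vehicle and at 50.4, 43.1 and 46.9 with DOX. Its difference was -0.55 (SE 0.12, limma adjusted p = 0.267), and -0.49 without DOX replicate 2, so that here the 3 DOX samples lay together. HMGA1, a chromatin architectural protein gene, had every DOX sample above every vehicle sample, as had 10.8% of all genes. Its difference was 0.42 (SE 0.15, limma adjusted p = 0.281). It was 0.14 after the GC and length correction and -0.02 on the deposited TPM. PLAU, the urokinase gene, had overlapping groups and a difference of 0.09 (adjusted p = 0.785), or -0.36 on the deposited TPM.

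Across the target list, DOX replicate 2 was the lowest sample for 6 of 17 genes, against 15.2% of all genes. Of the 17, 2 (IL6 and CXCL8) were over 2-fold below vehicle in it, against 1.45% of all genes. None was in DOX replicate 1 or 3. The median of the 17 genes was 0.22, 0.07 and 0.09 in DOX replicates 1, 2 and 3, so that the median of the list was not below vehicle in DOX replicate 2. What set DOX replicate 2 apart was not tested.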

How the data were processed

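Transcripts of DU-145/tet-XISTshRNA cells were measured by RNA-seq under vehicle (0.1% DMSO) or 500 ng/ml DOX, with 3 samples each, grouped by their labels. The paper, not the labels, gives the length of treatment. The paper gives triplicate cultures for RNA-seq and, for its experiments in general, a minimum of 3 independent biologic replicates. What a replicate number stands for here is not described, so p-values measure the spread between samples that may be technical. The labels and the paper name different RNA isolation reagents. The authors aligned reads with STAR to GRCh38 and deposited TPM per gene symbol; the STAR version, counting tool and strand setting are not given in the sources used here. The deposited DESeq2 table holds the authors' own fold changes, standard errors, Wald scores, p-values and adjusted p-values, which were not used, and each gene's mean normalized count, a pooled signal of the 6 samples that served only to recover reads.

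TPM values were divided by median-of-ratios factors. Genes whose TPM averaged at least 1 (11672) were tested by limma (version 3.58.1, R 4.3.3) on log2(value + 1) with a variance trend. Such differences understate changes of low genes. Whole reads were recovered for 96.4% to 99.9% of values under 20 reads (tolerance 0.05 reads) and used for limma voom. The read recovery and the limma and voom fits without a block were run on simulated data. The fits with a block and the GC and length correction were not. Same-numbered samples deviated together (r = 0.55, 0.26 and 0.18 for numbers 1, 2 and 3), so fits with the number as a block were run; the pairing rests on these correlations. GC content and length came from GENCODE 44 (93.0% of genes), gene positions too, and promoter windows from RefSeq. Tables were handled in Python 3.11.15 with pandas 2.3.3 and numpy 2.4.6, and figures drawn with matplotlib 3.10.9.

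The members and lists were chosen with earlier results of these data known. Besides the members, each list's genes past the call rule, its 3 genes with the largest differences whose groups did not overlap, its 2 genes with the highest mean, and the 5 genes most like FOS were named, except for items that are not reported here.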

Additional observations from a re-analysis of the deposited data

How the results depend on the processing

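With the replicate number as a block on scaled TPM, limma called 0 genes, as without it; the numbers pair the samples by correlation only, and after GC correction r was 0.18, 0.04 and 0.15. Voom without the block called 1 gene lower, and with the block 260 lower (2.23%) and 170 higher. Among those lower were 5 of the 26 further immediate early genes and 1 of the 17 AP-1 targets. On the deposited TPM 348 of the 11672 genes tested were called lower and 3 higher, and with the block 2217 and 15. Called in the lists were then 8 (12 with the block) of 26 immediate early genes and 3 (4) of 17 targets. Of 19 upstream genes 1 (6) were called, and of 8 bZIP partners 0 (2). A mean of at least 5 TPM gave 1 gene lower. Leaving out 1 sample gave 0 to 1 genes lower and 0 to 15 higher; the 15 came without vehicle replicate 1.

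Of the members' differences under alternatives, 14 moved by over 1 SD, 10 of them on the deposited TPM. That SD includes DOX replicate 2, so this count does not show how far the values rest on that sample: without it FOS went from -1.10 to -0.26 and EGR1 from -0.79 to -0.11, and JUN and JUNB changed sign. FOSB was -1.64 with a pseudocount of 0.1 and -1.45 by voom. JUND was -0.07 after GC correction. Of the named genes of other lists, 18 of 266 values passed the call rule, all on the deposited TPM or in voom with the block. The causes were not tested. With 3 samples a group and 5453785 reads in vehicle replicate 3, precision is lowest for low genes such as FOSB and EGR3 (78 and 48 reads there).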
